A study of Rattus norvegicus with 8 samples.

Results

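The genes described here are 10 genes of the goblet cell mucus layer, namely Muc2, Tff3, Fcgbp, Agr2, Spdef, Zg16, Clca1, Muc1, Muc13 and Chst5, followed across the 16 rats of a diet study. They were found by matching the transcript accession of every array probe to the current rat gene symbol. By this rule 7 of the 10 genes were matched, through 8 of the 30367 probes of the array, and all 7 passed the filter on dim probes and were among the 19899 genes tested. Muc2, Muc1 and Muc13 were matched to no probe by this rule and are not analysed here, so the list holds no mucin. Spdef had 2 probes and was read from the brighter, and the other 6 genes had 1 probe each.

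The animals were female Wistar rats, given as 6 weeks old in the sample labels, that had eaten the diets for 3 weeks. The REF rats ate a standard purified diet. The C10 diet contained 10 % cocoa, which supplies polyphenols with soluble and insoluble fiber. The CF diet carried cocoa fiber in the proportion of the C10 diet with very little polyphenol, and the I diet carried inulin in the amount of the soluble fiber of the C10 diet. Each diet is represented by 4 rats, and each of 8 arrays measured 2 rats of different diets, 1 in the dye Cy5 and the other in Cy3, with 2 rats of each diet in either dye. This is the layout of the sample labels, which was used here; the study's methods speak of dye swaps for every sample, whereas the labels give each rat a single dye and array. The first 4 arrays carried all C10 rats and the last 4 all I rats, with REF and CF rats on both sets, so an effect of the array set can be separated from these 2 diets only through REF and CF.

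Goblet cells are the secretory cells of the colonic epithelium. They store gel-forming mucin in granules and release it together with small trefoil peptides, lectins and proteins that bind or process the gel. The mucin is folded in the endoplasmic reticulum, decorated with long sugar chains that can be sulfated or capped with sialic acid, and discharged as the mucus that keeps bacteria off the epithelium. Among the members, Tff3, Fcgbp, Clca1 and Zg16 are secreted with the mucus, Agr2 and Spdef act inside the cell in folding and in gene control, and Chst5 is an enzyme that sulfates sugar chains.

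The bases before the transcription start are shown for Tff3 and Clca1, which moved together over the rats, and for Agr2 and Chst5, which moved in opposite directions. Each stretch holds the 250 bases upstream of the start in the RefSeq annotation of the build GRCr8, read 5′ to 3′ on the strand of the gene. Capitals mark TATAAA, the letters of the TATA box, TTTAT, a core shared by many sites of CDX and posterior HOX proteins, and CACCTG, a form of the E-box, each on either strand. The reverse of TTTAT lies inside TATAAA, so these 2 matches can overlap. Tff3 lies on the minus strand (chr20:9199334-9199583), as do Clca1 (chr2:236624715-236624964) and Chst5 (chr19:56790273-56790522), and Agr2 lies on the plus strand (chr6:58435658-58435907).
Tff3: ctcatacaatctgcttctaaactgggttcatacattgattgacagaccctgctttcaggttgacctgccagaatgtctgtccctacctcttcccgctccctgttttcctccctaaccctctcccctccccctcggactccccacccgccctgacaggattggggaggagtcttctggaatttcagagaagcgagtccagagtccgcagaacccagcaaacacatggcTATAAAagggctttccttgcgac
Clca1: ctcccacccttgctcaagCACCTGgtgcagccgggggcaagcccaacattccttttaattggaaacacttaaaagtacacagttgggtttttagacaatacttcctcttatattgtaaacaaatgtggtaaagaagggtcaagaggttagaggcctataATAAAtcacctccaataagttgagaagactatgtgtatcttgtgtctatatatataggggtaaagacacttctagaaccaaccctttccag
Agr2: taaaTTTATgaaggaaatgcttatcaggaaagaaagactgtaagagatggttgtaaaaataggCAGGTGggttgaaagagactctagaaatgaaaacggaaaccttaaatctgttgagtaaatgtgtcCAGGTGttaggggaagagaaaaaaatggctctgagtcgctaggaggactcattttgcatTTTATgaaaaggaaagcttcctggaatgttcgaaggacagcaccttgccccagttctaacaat
Chst5: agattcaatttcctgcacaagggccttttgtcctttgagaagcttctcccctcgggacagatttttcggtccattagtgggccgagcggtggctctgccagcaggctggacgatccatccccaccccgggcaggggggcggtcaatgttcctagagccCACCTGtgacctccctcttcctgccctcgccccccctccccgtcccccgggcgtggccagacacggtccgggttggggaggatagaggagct
The Tff3 stretch held TATAAA, starting 23 bases before the start site. The Agr2 stretch held TTTAT at 2 places and CACCTG at 2 places and had 39.2 % G and C. The Chst5 stretch had 63.6 % G and C, against a median of 51.2 % over all promoters, and held 1 CACCTG and no TTTAT. Of the 9 members with a promoter in the table, which lacks Zg16, 3 held TATAAA, 6 held TTTAT and 5 held CACCTG. Over all 33469 promoters of the same length the shares were 12.9 %, 39.3 % and 15.9 %.

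The tissue was a piece of the whole colon wall, in which fewer goblet cells and less RNA per goblet cell cannot be told apart. Epithelial genes were well above background in all 16 rats, with normalized log2 signals of 14.56 to 15.54 for Epcam and 14.93 to 16.16 for Krt20. In each rat, 68.6 to 83.9 % of the spots were well above background and the lowest signal that was so lay between 5.82 and 6.21 on the log2 scale. All 8 probes of the members were well above background in all 16 rats, and 0 spots were saturated. The signals of genes of position and of other cell types varied between the pieces. Whether tissue content, position or expression per cell differed was not tested. Hoxb13, a posterior Hox gene whose expression marks position along the gut, had a log2 signal of 6.60 in REF 4, 9.71 in CF 2 and 9.96 in I 2, and of 12.36 to 14.88 in the other 13 rats. The mean of 6 B cell and follicle genes, as the deviation from their mean over all rats, ran from -1.32 to -0.30 in 9 rats and from 0.37 to 2.06 in the other 7. All 8 mast cell genes fell in C10 against REF (adjusted p below 0.05, limma), with a mean of -1.54 to -0.60 in C10 and -0.10 to 0.62 in the other diets. The mean of 8 smooth muscle genes was -1.76 to 0.29 in C10 and -0.16 to 0.48 in REF. The mean of 5 plasma cell genes was -1.08 to -0.26 in C10 and -0.21 to 0.64 in REF, and these ranges did not overlap. The mean of 6 enteroendocrine genes was -0.29 to -0.03 in C10 and -0.54 to 0.76 in REF, and that of 10 epithelial genes was -0.14 to 0.17 in REF and -0.04 to 0.43 in C10.

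The diets were compared on log2 signals with limma, with diet and dye as terms and the array as a block, and calls required both a 2-fold change and an adjusted p under 0.05. No member was called in any of the 6 comparisons between diets. The share called among all genes was 0.196 % for C10 against REF, 0.101 % for C10 against CF and 0.166 % for C10 against I, and it was 0 % for CF against REF, for I against REF and for CF against I. At an unadjusted p below 0.05, 3 of the 7 members differed between C10 and REF, where 17.1 % of all genes did, and these were Chst5 with a higher signal and Agr2 and Spdef with a lower signal in C10. Between C10 and I, 1 of the 7 did, which was Chst5, against 12.2 % of all genes. There were 0 such members for CF against REF (6.35 % of all genes), I against REF (5.71 %), C10 against CF (13.4 %) and CF against I (2.82 %). Rank product, the test named in the methods of the study, called Chst5 at 2-fold for C10 against REF, C10 against I and C10 against CF, with 0 %, 0.0909 % and 3.89 % false positives against its limit of 5 %, and 0 members in the other 3 comparisons. Rank product called 0.683 %, 0.548 % and 0.332 % of all genes in these comparisons, and 0.246 % for CF against REF, 0.151 % for I against REF and 0.0754 % for CF against I. The call for C10 against CF lies close to this limit and rests on a single draw of 100 random permutations, so it may not hold with another draw. For C10 against I, rank product used only rats of different array sets and cannot separate diet from array set. Chst5, Agr2 and Spdef are correlated with each other over the rats, as described further on, so these 3 are not separate observations.

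The 4 values of a diet lay entirely on one side of the 4 of the other for 1 member in C10 against REF, which was Spdef (4.57 % of all genes), and for 1 member in C10 against I, which was Chst5 (5.8 %). There were 0 such members for CF against REF (1.89 %), I against REF (2.07 %), C10 against CF (3.54 %) and CF against I (1 %). C10 and I rats lay on different array sets, which the count for C10 against I does not take into account. The median log2 change of the 7 members was -0.269 for C10 against REF, -0.039 for CF against REF and -0.055 for I against REF, and that of all genes was 0.012, 0.013 and 0.006. C10 and the other 2 diets were compared with the same 4 REF rats.

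**Figure D1:**
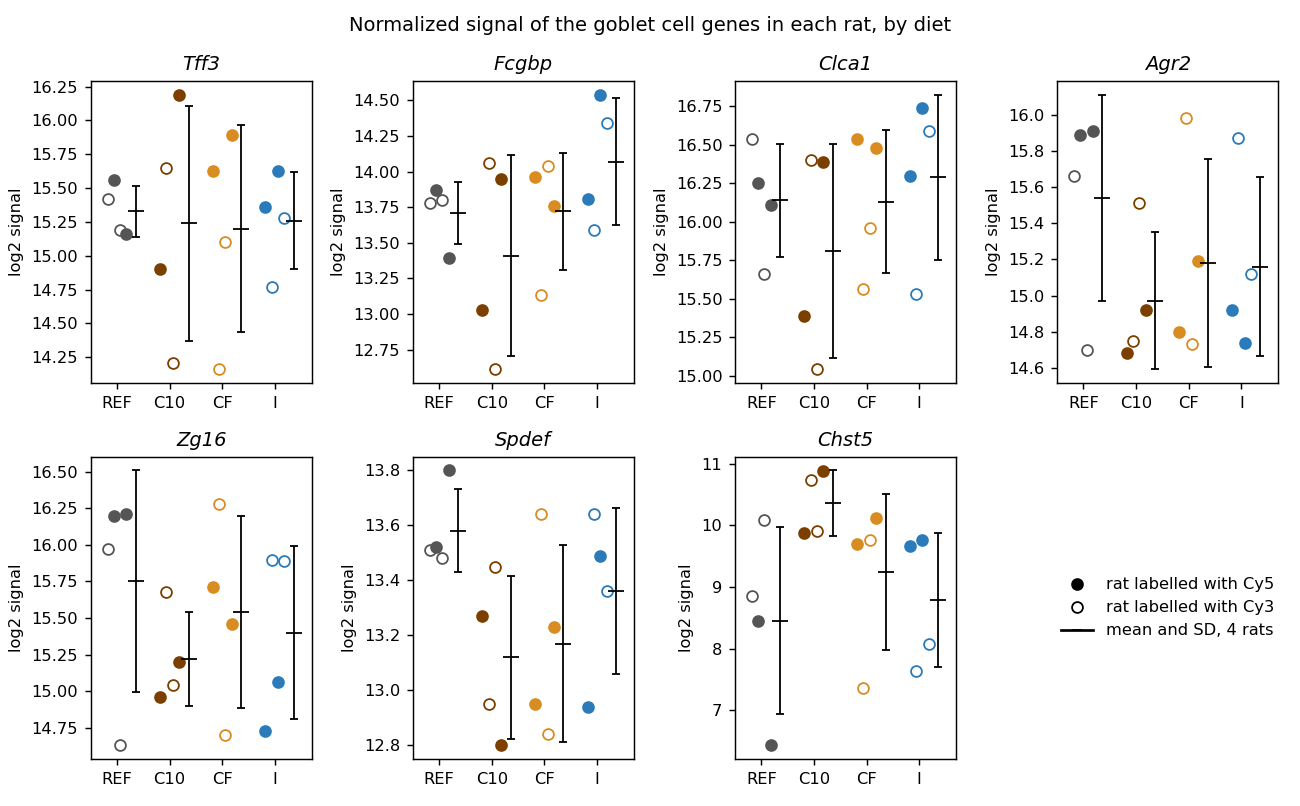
Normalized log2 signal (vertical axis, own scale for each gene) of the 7 goblet cell genes in each of the 16 rats, by diet (horizontal axis); filled points were labelled with Cy5 and open points with Cy3, and bars give the mean and SD of 4 rats. Spdef is the gene whose C10 rats all lie below all REF rats, and Chst5 spans from 6.43 in REF 4 to 10.89 in C10 4.

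Tff3, the trefoil peptide that is released with the mucin and aids repair of the epithelium, had a nearly equal mean in the 4 diets. Its log2 signal was 15.42, 15.56, 15.19 and 15.16 in REF, 14.90, 15.65, 14.21 and 16.19 in C10, 15.63, 14.16, 15.10 and 15.89 in CF and 15.36, 14.77, 15.63 and 15.28 in I, each given for rats 1 to 4. Before adjustment for dye, the REF rats lay close together, with an SD of 0.188 (n = 4). The C10 rats held both the highest value of all rats and, but for CF 2, the lowest, and had an SD of 0.866. With the dye difference removed, REF ran from 14.879 to 15.7, C10 from 14.491 to 15.935 and I from 15.054 to 15.56, so REF was then wider than I. All 4 diets overlapped. The fitted log2 change against REF was -0.02 for C10 (SE 0.36, 95 % interval -0.78 to 0.75), -0.04 for CF (SE 0.39) and -0.05 for I (SE 0.36), with adjusted p from limma of 0.991, 0.996 and 0.995. The Cy5 signal of Tff3 was 0.57 above the Cy3 signal on the log2 scale, the largest such difference among the members, and the fit removes it.

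Fcgbp, a large protein of the mucus gel that is bound to the mucin, also had its widest spread in C10. The log2 signal of Fcgbp was 13.78, 13.87, 13.80 and 13.39 in REF, 13.03, 14.06, 12.61 and 13.95 in C10, 13.96, 13.13, 14.04 and 13.76 in CF and 13.81, 13.59, 14.54 and 14.34 in I. C10 1 and C10 3 had the lowest values of all 16 rats, and C10 2 and C10 4 lay above the highest REF rat. The change against REF was -0.18 for C10 (SE 0.31), 0.23 for CF (SE 0.34) and 0.46 for I (SE 0.31), and the adjusted p was 0.825, 0.952 and 0.931 (limma). The mean was highest in I (14.07 ± 0.445, SD, n = 4) and lowest in C10 (13.41 ± 0.708), and the difference between these 2 diets was -0.63 (95 % interval -1.35 to 0.09, adjusted p = 0.477, limma).

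Clca1, a secreted metalloprotease that acts on the mucus gel, followed the same rats. Clca1 signals on the log2 scale were 16.54, 16.25, 15.66 and 16.11 in REF, 15.39, 16.40, 15.04 and 16.39 in C10, 16.54, 15.56, 15.96 and 16.48 in CF and 16.30, 15.53, 16.74 and 16.59 in I. C10 1 and C10 3 were again the lowest of the 16 rats, and the diets overlapped. The change against REF was -0.27 for C10 (SE 0.33), 0.19 for CF (SE 0.36) and 0.29 for I (SE 0.33), with adjusted p of 0.737, 0.967 and 0.956 (limma). Because the fit weighs differences within an array, such a value can depart from the difference of the plain means, which for Clca1 were 16.13 in CF and 16.14 in REF.

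Zg16, a lectin of the mucus that binds bacteria, had its lower values in rats of every diet. Zg16 had log2 signals of 15.97, 16.20, 14.63 and 16.21 in REF, 14.96, 15.68, 15.04 and 15.20 in C10, 15.71, 16.28, 14.70 and 15.46 in CF and 14.73, 15.90, 15.06 and 15.89 in I. REF 3 was the lowest of all rats, and the other 3 REF rats lay above all 4 C10 rats. The change against REF was -0.66 for C10 (SE 0.31, 95 % interval -1.33 to 0, adjusted p = 0.295, limma), -0.14 for CF (SE 0.34) and -0.15 for I (SE 0.31). The exact permutation test of 4 C10 against 4 REF rats gave p = 0.286 (two-sided). Without REF 3 the change for C10 was -0.95 with an adjusted p of 0.0637 (limma).

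Agr2, a protein disulfide isomerase of the endoplasmic reticulum that is needed for the folding of mucin, had a lower mean in C10 than in REF. Its log2 signal was 15.66, 15.89, 14.70 and 15.91 in REF, 14.68, 14.75, 15.51 and 14.92 in C10, 14.80, 15.98, 14.73 and 15.19 in CF and 14.92, 15.87, 14.74 and 15.12 in I. All REF rats but REF 3 lay above all C10 rats, CF 2 and I 2 lay as high as these REF rats, and the other CF and I rats lay among the C10 rats. The change against REF was -0.77 for C10 (SE 0.29, 95 % interval -1.40 to -0.14), which is 1.71-fold lower, with an adjusted p of 0.202 (limma). For CF it was -0.57 (SE 0.32, 95 % interval -1.25 to 0.11) and for I -0.39 (SE 0.29, 95 % interval -1.02 to 0.24), neither past the adjustment. The exact permutation test of C10 against REF gave p = 0.143 (two-sided). Agr2 was called only without REF 3, where the change was -1.03 with an adjusted p of 0.0464 (limma). On arrays 1 to 4, which hold all C10 rats, both REF rats lay above all 4 C10 rats.

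Spdef, the ETS-family transcription factor that drives goblet cell maturation, had the smallest spread of the members. Its log2 signal was 13.51, 13.52, 13.48 and 13.80 in REF, 13.27, 12.95, 13.45 and 12.80 in C10, 12.95, 13.64, 12.84 and 13.23 in CF and 12.94, 13.64, 13.49 and 13.36 in I. All 4 C10 rats lay below all 4 REF rats, with C10 3 (13.45) just under REF 3 (13.48), while CF and I overlapped with both. The change for C10 against REF was -0.46 (SE 0.18, 95 % interval -0.84 to -0.08), which is 1.38-fold lower, with an adjusted p of 0.209 (limma). The exact permutation test gave p = 0.0286 (two-sided), the smallest p that 4 rats against 4 allow. The change was -0.39 for CF (SE 0.19, adjusted p = 0.802) and -0.19 for I (SE 0.18, adjusted p = 0.949). The second Spdef probe, which correlated with the first over the 16 rats (r = 0.91), gave -0.35 for C10 (SE 0.149) and -0.40 for CF (SE 0.161).

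Chst5, a sulfotransferase that places sulfate on N-acetylglucosamine in sugar chains of the intestine, had the largest differences among the members. Its log2 signal was 8.85, 8.45, 10.09 and 6.43 in REF, 9.88, 10.74, 9.91 and 10.89 in C10, 9.70, 7.36, 9.77 and 10.12 in CF and 9.67, 7.64, 9.77 and 8.07 in I. The C10 rats lay close together, with a mean of 10.36 ± 0.534 (SD, n = 4), and above all I rats, but REF 3 overlapped with them. The REF rats were spread over 3.67 log2 units around a mean of 8.45 ± 1.52 (SD, n = 4), and REF 4, CF 2 and I 2 had the lowest values. The change for C10 against REF was 2.03 (SE 0.67, 95 % interval 0.59 to 3.47), which is 4.08-fold higher, with an adjusted p of 0.150 (limma). The exact permutation test gave p = 0.0857 (two-sided). The change was 0.82 for CF (SE 0.73, adjusted p = 0.911) and 0.25 for I (SE 0.67, adjusted p = 0.979). For CF it was 0.05 without REF 4 and 1.56 without CF 2, and for I it was -0.69 without REF 4 and 0.92 without REF 3. C10 was higher than I by 1.78 (SE 0.73, adjusted p = 0.342, limma) with an exact permutation p of 0.0286, and higher than CF by 1.21 (SE 0.67, adjusted p = 0.457). Without REF 4 the change for C10 against REF was 1.42 (adjusted p = 0.339, limma). On arrays 1 to 4 both REF rats lay below all 4 C10 rats. Chst5 is among the genes that the study itself lists for C10 from these samples, so this value is not independent evidence of a direction.

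**Figure D2:**
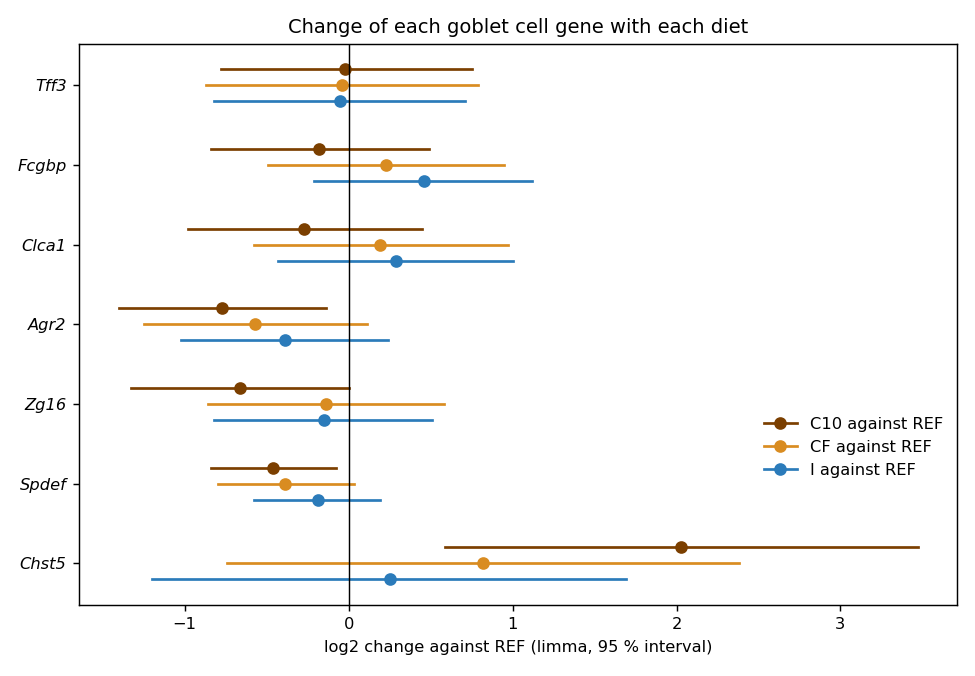
Fitted log2 change against REF (horizontal axis) of each goblet cell gene (vertical axis) with the C10, CF and I diets; points are limma estimates and lines their 95 % intervals. The C10 interval excludes 0 for Chst5 (2.03), Agr2 (-0.77) and Spdef (-0.46), without adjustment for the number of genes, and the Tff3 estimates lie at -0.02 to -0.05.

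The spread between rats of the same diet was wide for every member. After removal of diet and dye, the residual SD was 1.3 on the log2 scale for Chst5, 0.67 for Tff3, 0.63 for Clca1, 0.58 for Fcgbp and for Zg16, 0.55 for Agr2 and 0.33 for Spdef, against a median of 0.16 over all genes. A smaller SD than that of Chst5 was found in 99.7 % of all genes, and than that of Spdef in 89.7 %. This spread was shared between members, and it divided them. Signals were adjusted for dye, and all 21 pairs of members were correlated over the 16 rats, with permutation p-values from 100000 resamples adjusted over the 21 pairs. The adjusted p of Pearson's r was below 0.05 for 8 pairs, of which 5 were positive and 3 negative. Rats on the same array share its spots (block correlation 0.419), which these permutations do not take into account.

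Among the secreted proteins, Tff3, Fcgbp and Clca1 varied together. The r of Fcgbp with Clca1 was 0.87 (rho 0.81, permutation p = 2e-05 and 0.00019, adjusted 0.00042 and 0.00262). The r of Tff3 was 0.80 with Clca1 and 0.79 with Fcgbp (rho 0.79 and 0.71), each with an adjusted permutation p of 0.00152 for r. C10 1, C10 3 and CF 2 had the lowest dye-adjusted Tff3 signals, and C10 1 and C10 3 the lowest of Fcgbp and of Clca1. Without the 2 rats farthest from the median, r was 0.73 for Fcgbp with Clca1, 0.75 for Tff3 with Clca1 and 0.66 for Tff3 with Fcgbp. The relations held on arrays 1 to 4 (r of 0.93, 0.87 and 0.91) and, with smaller values, on arrays 5 to 8 (0.78, 0.57 and 0.60). After subtraction of the diet means r was 0.85, 0.86 and 0.90.

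The other secreted member, Zg16, varied instead with Agr2. The r of Agr2 with Zg16 was 0.77 (rho 0.82, adjusted permutation p = 0.0034 and 0.00262), and that of Agr2 with Spdef was 0.72 (rho 0.67, adjusted permutation p = 0.00575 and 0.0143). Spdef and Zg16 had an r of 0.51 (adjusted permutation p = 0.103) and a rho of 0.61 (adjusted permutation p = 0.0343). Between Zg16 and the 3 genes Tff3, Fcgbp and Clca1, r was -0.05, -0.04 and 0.23. After subtraction of the diet means, r was 0.74 for Agr2 with Zg16 and 0.66 for Agr2 with Spdef, and it was -0.69 for Spdef with Tff3.

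Chst5 ran against the Agr2, Spdef and Zg16 group. Its r was -0.79 with Agr2, -0.75 with Spdef and -0.71 with Zg16 (rho -0.71, -0.69 and -0.71), and the adjusted permutation p of r was 0.00152, 0.0034 and 0.0051. These values were -0.78, -0.69 and -0.71 after subtraction of the diet means. They were -0.72, -0.73 and -0.71 without the 2 farthest rats, -0.82, -0.84 and -0.74 on arrays 1 to 4 and -0.87, -0.66 and -0.88 on arrays 5 to 8. The same 3 rats, REF 4, CF 2 and I 2, had the lowest Chst5 and the highest Spdef signals, and they were among the 4 rats with the highest Agr2 signal.

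**Figure D3:**
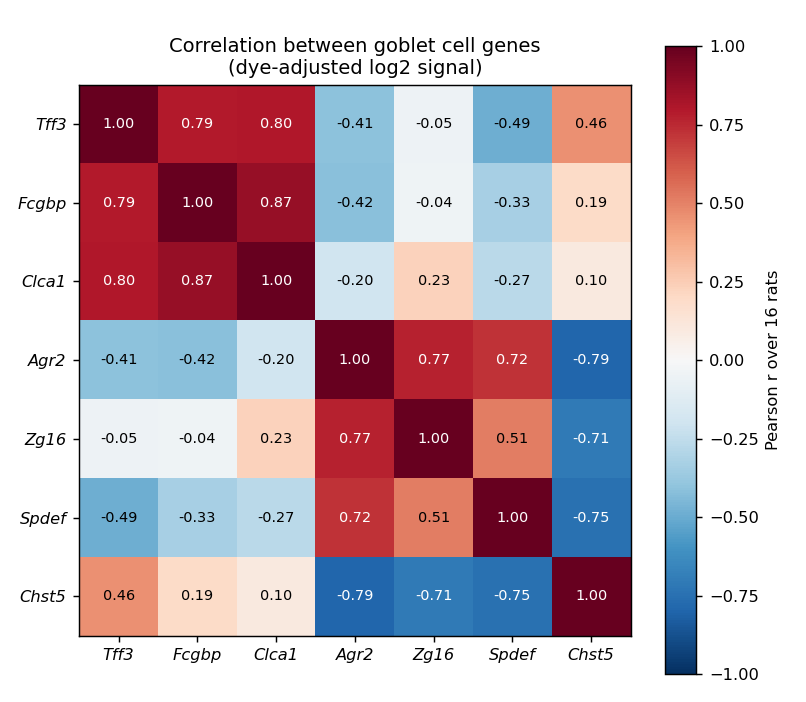
Pearson r over 16 rats between the dye-adjusted log2 signals of the 7 goblet cell genes (rows and columns); red is positive, blue negative, and each cell gives its r. Tff3, Fcgbp and Clca1 form a block of 0.79 to 0.87 and Agr2, Zg16 and Spdef a block of 0.51 to 0.77, and Chst5 is at -0.71 to -0.79 with the second block.

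REF 4, CF 2 and I 2 are also the 3 rats with the lowest Hoxb13 signal. Since these rats stand apart, the relation with Hoxb13 was taken over the other 13 rats, and 21 relations of members with Hoxb13 or with the B cell and follicle genes were adjusted together. Over the 13 rats, Chst5 had an r of 0.94 with Hoxb13 (rho 0.87, permutation p = 3e-05 and 0.0003, adjusted 0.00063 and 0.0063) and an r of 0.87 without the 2 farthest of them. Agr2 had an r of -0.67 (rho -0.55) and Spdef of -0.65 (rho -0.68), both with an adjusted permutation p of 0.084 for r. Zg16 was at -0.55 (rho -0.45), Tff3 at 0.28 (rho 0.46), Clca1 at -0.13 (rho -0.14) and Fcgbp at -0.08 (rho -0.01), with adjusted permutation p of 0.217 to 0.809 for r. Hoxb13 itself was 13.42 to 14.88 in C10, 6.60 to 14.07 in REF, 9.71 to 14.36 in CF and 9.96 to 13.79 in I. With the Hoxb13 signal as a further term in the fit, a choice made after seeing the data, the change for C10 against REF was 0.74 for Chst5 (adjusted p = 0.384, limma) in place of 2.03. It was -0.32 for Agr2, -0.21 for Spdef and -0.29 for Zg16 in this fit, and -0.50 for Tff3, -0.57 for Fcgbp and -0.62 for Clca1, all with an adjusted p of 0.568 or more. Hoxb13 is itself among the genes that the study lists as higher in C10. A term that differs with the diet also takes out part of any diet effect, so this fit cannot separate position from diet.

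**Figure D4:**
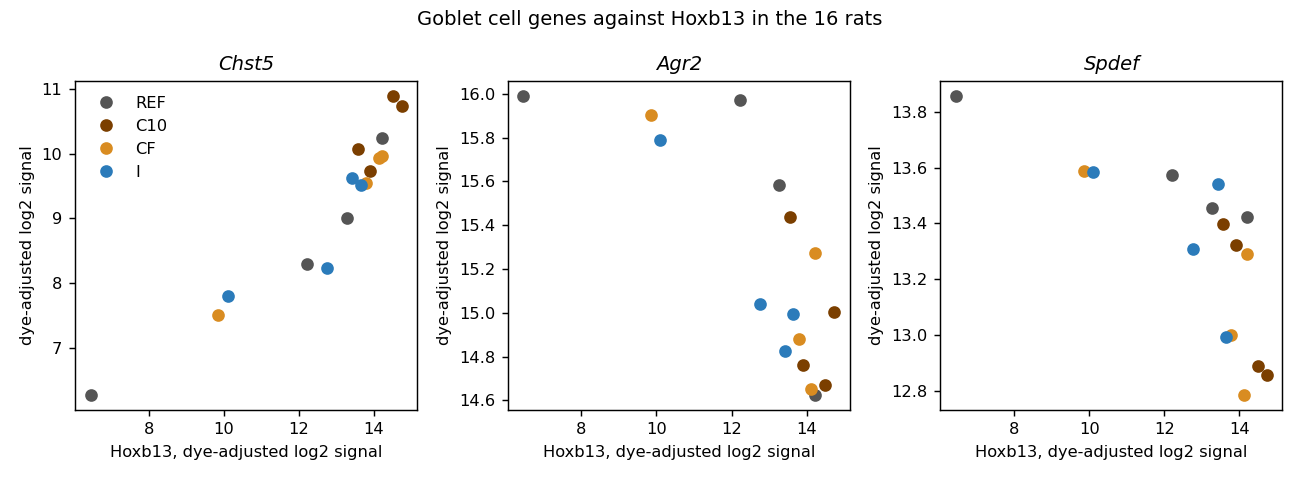
Dye-adjusted log2 signal of Chst5, Agr2 and Spdef (vertical axes) against that of Hoxb13 (horizontal axes) in the 16 rats, coloured by diet. REF 4, CF 2 and I 2 stand apart at low Hoxb13, and over the other 13 rats r is 0.94 for Chst5, -0.67 for Agr2 and -0.65 for Spdef.

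The members were also set against the B cell and follicle genes, within the sets of 7 and 9 rats. Over the 7 rats with more B cell and follicle signal, the r of Zg16 with the mean of these genes was -0.87 (rho -0.86, exact permutation p = 0.00933 and 0.0238, adjusted 0.084 and 0.167). Over the other 9 rats the r of Zg16 was -0.20 (rho -0.45, exact permutation p = 0.631 and 0.230). Zg16 was 14.63 to 15.71 in the first set of rats and 15.20 to 16.28 in the other. With the B cell and follicle mean as a further term, also chosen after seeing the data, the change of Zg16 for C10 against REF was -0.42 (adjusted p = 0.266, limma). The same fit gave -0.59 for Agr2, -0.43 for Spdef and 1.79 for Chst5, with adjusted p of 0.193 to 0.274 (limma).

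Markers of other cells moved with the members as well, in a family of 63 relations of the 7 members with 9 markers over the 16 rats. The enteroendocrine mean, which stands for the hormone-secreting cells of the epithelium, had an r of 0.89 with Zg16 (rho 0.87) and of -0.87 with Chst5 (rho -0.79), both with an adjusted permutation p of 0.00063 for r. Its r was 0.79 with Agr2 (rho 0.70) and 0.69 with Spdef (rho 0.70), with adjusted permutation p of 0.00244 and 0.0178. Without REF 4 and CF 2, the 2 farthest rats, these values were 0.86, -0.76, 0.68 and 0.54. Zg16 also had an r of 0.79 with the absorptive colonocyte mean (rho 0.76, adjusted permutation p = 0.0021) and of 0.64 with the epithelial mean (rho 0.68, adjusted permutation p = 0.0209). Chst5 had an r of -0.70 with the plasma cell mean (rho -0.79, adjusted permutation p = 0.0154), and of -0.64 after subtraction of the diet means. For the mast cell mean, which set the C10 rats apart from all others, the r with Chst5 was -0.63 (rho -0.82, adjusted permutation p = 0.0424 for r). It was -0.38 after subtraction of the diet means. The B cell and follicle mean had an r of -0.86 with Zg16 (rho -0.85) and of -0.64 with Agr2 (rho -0.70). The adjusted permutation p of r was 0.000788 and 0.0424, and 0.243 or more for the other members. These values span the 2 sets of rats that this mean divides. The part of these cells in the changes of the members was not tested.

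By the rule of the highest r with the mean of the standardized signals of the 6 measured members other than Chst5, the genes most like them over the 16 rats were Dld and Sprr3 (r = 0.90), Ang (0.87), Fndc1, Pdgfrl and Ptgis (0.86) and 4 features without a symbol (0.85 to 0.86). As this mean averages the members of both blocks, Spdef had an r of only 0.34 with it and Agr2 of 0.44, against 0.73 for Zg16 and for Clca1. Taken singly, which was decided after the values were seen, the gene with a symbol most like Fcgbp was Fcgbpl1 (r = 0.92) and the one most like Clca1 was also Fcgbpl1 (0.88). Fcgbpl1 is a gene named for its likeness to Fcgbp, and whether the probes share target sequence was not tested. For Chst5 they were Cyp2t1 (0.96) and Foxq1 (0.95). These are descriptions over 16 rats that share arrays and diets.

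The rest of the mucus pathway was covered by 4 lists. Of 12 other mucins, 2 were matched to a probe and 0 passed the filter. Of 14 genes listed as other secreted goblet proteins 12 were tested. Spink4 and Lypd8 were matched to no probe by the accession rule and are not covered by these counts. The study itself lists Spink4 as lower than in REF by more than 2-fold in C10, CF and I. At an adjusted p below 0.05 at any fold (limma), 1 rose and 1 fell in C10 against REF, where 0.945 % of all genes passed. The gene that rose, Mep1b, encodes a protease subunit, and whether goblet cells expressed it was not tested. At an unadjusted p below 0.05, 1 of the 12 was higher and 4 were lower, and rank product called 3. Over all genes, rank product called 0.683 % for C10 against REF. Of 40 enzymes of mucin glycosylation and sulfation 33 were tested, and 1 rose, with 7 higher and 5 lower at an unadjusted p below 0.05 and 2 called by rank product. Of 24 regulators and parts of the secretory machinery 22 were tested, and 0 passed, with 1 higher and 3 lower at an unadjusted p below 0.05 and 0 called by rank product. Among all 19899 genes, 1735 were higher and 1675 lower in C10 at an unadjusted p below 0.05. For CF and for I against REF, 0 tested genes of these lists passed, and 0 % of all genes did. The unadjusted counts in the 3 lists with tested genes were 2 higher and 9 lower for CF, and 1 higher and 4 lower for I. Rank product called 1 gene for each, against 0.246 % of all genes for CF and 0.151 % for I. Among all genes the unadjusted counts were 621 higher and 642 lower for CF, and 585 higher and 552 lower for I.

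The gene that fell in C10 was Reg4, a secreted lectin of intestinal secretory cells, from 8.58 ± 0.346 in REF to 8.03 ± 0.142 (SD, n = 4), a change of -0.61 (SE 0.13, adjusted p = 0.0478, limma). Mep1b, the beta subunit of the protease meprin, which helps to detach mucus, rose from 13.23 ± 0.205 to 14.06 ± 0.325 (SD, n = 4), a change of 0.86 (SE 0.17, adjusted p = 0.0308, limma). The sialyltransferase gene St6galnac2 rose from 7.86 ± 0.0726 to 8.34 ± 0.220 (SD, n = 4), a change of 0.53 (SE 0.098, adjusted p = 0.0244, limma). It was also higher in C10 than in I, by 0.68 (SE 0.11, adjusted p = 0.0146, limma), the only call at any fold in these lists outside C10 against REF. C10 and I rats lay on different array sets, for which this fit has no term. At any fold 0.563 % of all genes passed for C10 against I, 0.427 % for C10 against CF and 0 % for CF against I. In Mep1b and St6galnac2 all 4 C10 rats lay above all 4 REF rats, and 4.57 % of all genes did not overlap between these diets. Reg4 overlapped, with REF 3 (8.07) below C10 1 (8.08) and C10 2 (8.20), and its exact permutation p was 0.0857 (two-sided). The values of these genes under the alternative settings were not examined. None of the 3 genes changed by as much as 2-fold.

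Larger changes in these lists came with wider spread and did not pass the adjustment in limma. Rank product called B3gnt7 higher and Tff1, Gcnt3, Itln1 and Retnlb lower in C10 than in REF, Dmbt1 lower in CF and Retnlb higher in I. B3gnt7, which extends sugar chains with N-acetylglucosamine, differed by 2.03 in C10 against REF (SE 0.83, adjusted p = 0.231, limma), as much as Chst5. B3gnt7 had log2 signals of 14.34, 14.62, 15.45 and 11.32 in REF, 15.68, 16.06, 15.86 and 15.32 in C10, 15.23, 11.96, 15.01 and 15.50 in CF and 14.74, 12.15, 15.39 and 14.28 in I. REF 4, CF 2 and I 2 were the lowest here too. Tff1, a trefoil peptide best known from the stomach, was at -1.31 (SE 0.41, adjusted p = 0.129, limma) with all 4 C10 rats below all REF rats. Of all genes, 4.57 % did not overlap between these diets. The log2 signals of Tff1 were low, 6.22 to 6.76 in C10 and 6.84 to 8.22 in REF. Those in C10 lay near the lowest signals well above background (5.82 to 6.21). Gcnt3, which branches mucin sugar chains, was at -1.07 in C10 against REF (SE 0.34, adjusted p = 0.139, limma). In CF against REF the largest changes were those of Retnlb, a resistin-like peptide that goblet cells release (1.60, SE 1.2), Dmbt1 (-1.14, SE 0.62) and Tff1 (-0.95, SE 0.44), with adjusted p of 0.784 to 0.889 (limma). In I against REF they were those of Retnlb (2.08, SE 1.1), Clca4 (1.16, SE 0.54) and Itln1, a lectin that binds microbial sugars (0.63, SE 0.70), with adjusted p of 0.867 to 0.952. B3gnt7, Tff1, Gcnt3 and Retnlb are also in the lists that the study drew from these samples.

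**Figure D5:**
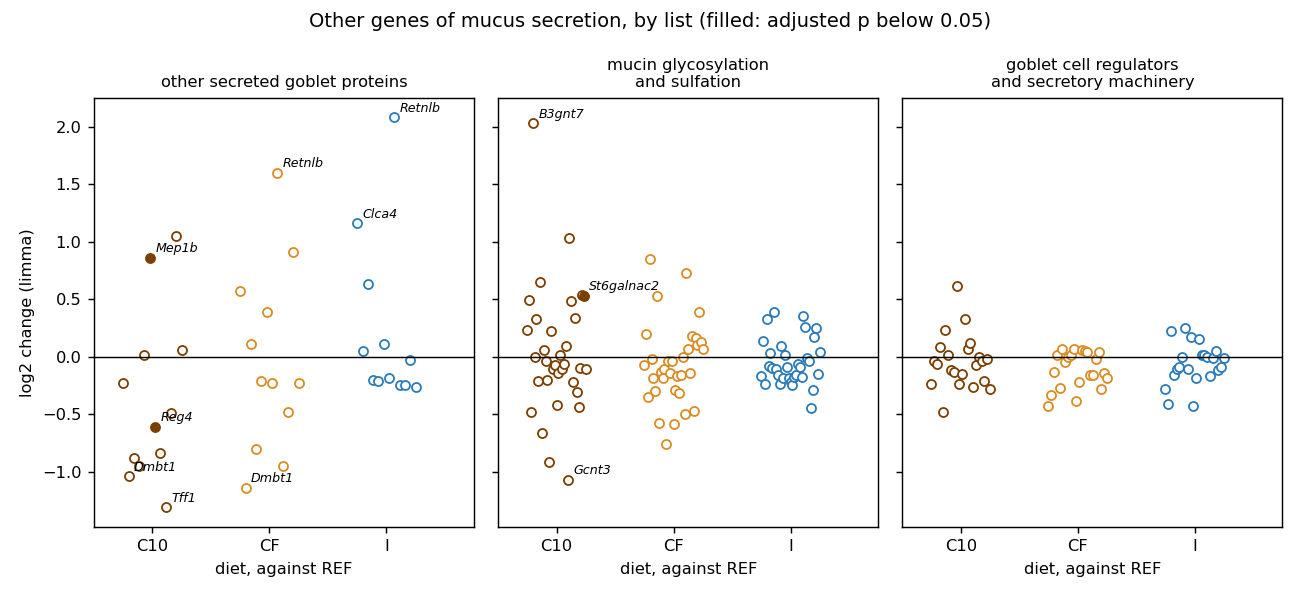
Fitted log2 change against REF (vertical axis) of the tested genes of 3 lists, by diet (horizontal axis); each point is a gene, filled where the adjusted p was below 0.05, and the genes described in the text are named where filled or changed by more than 1. The filled points are Mep1b (0.86), Reg4 (-0.61) and St6galnac2 (0.53), all with C10.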

How the data were processed

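RNA of the colon of 16 rats was hybridized to 8 Agilent arrays of 62976 spots, 58717 of them not controls. The authors read the scans with Agilent's Feature Extraction software (version 10.7.3.1). The deposited scanner tables give, per dye, a raw median intensity for every spot and another for the background around it. The same deposited files hold processed intensities, used in 1 alternative. The authors' normalized table was left out, since none of its 8 columns could be tied to a labelled sample. Each dye of each array was assigned to a rat and diet from the sample labels.

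Intensities were corrected with limma 3.58.1 in R 4.3.3 (normexp, offset 50), then by spatial loess (span 0.4), intensity loess (span 0.3) and Aquantile between arrays. The offset and spans are not given in the sources used here. Outlier spots were left out, the spots of a probe averaged, and a probe kept if 4 or more of the 16 rats had it well above background (22537 of 30367). Each gene was read from its brightest probe through its RefSeq accession. This gave 19899 genes, 11921 with a symbol. Strength of signal and the number of arrays limit precision.

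The log2 signals of all rats were fitted in limma with diet and dye as terms and array as block (correlation 0.419), with Benjamini-Hochberg adjustment over all genes. Single members were also tested by exact permutation of 4 rats against 4 (smallest p 0.0286). Relations over rats used permutation tests, exact below 10 rats. The pipeline was tested on simulated data. Alternatives covered the offset, processed signals, normalization, filter, probe rule, dye, log-ratios, slide position, rank product with 100 permutations, and leaving out each rat. The labels give separate animals, so the rat was the replicate. Members, gene lists and tests were chosen with earlier results of these data known. The text names every member with a probe, the other pathway genes at an adjusted p below 0.05 in any comparison, and for each diet against REF the 3 with the largest change.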

Additional observations from a re-analysis of the deposited data

Results flagged for a closer look

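Of 28 sets of 4 rats (7 members in 4 diets), 3 held a rat whose gap to its nearest neighbour was a larger part of the range of the set than Dixon's 95 % limit. Chance gives about 1 such set in 20. Spdef was 13.80 in REF 4 against 13.52 in the nearest REF rat, a gap of 0.881 of the range. Zg16 was 14.63 in REF 3 against 15.97 in the nearest REF rat (0.850), and REF 3 had the highest B cell and follicle mean of its diet (1.57). Chst5 was 7.36 in CF 2 against 9.70 in the nearest CF rat (0.849), and CF 2 had the lowest Hoxb13 of its diet (9.71).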

How the results depend on the processing

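The count of called members was 0 in every comparison and stayed 0 under the other settings tried, with these exceptions. Rank product called 1 member (Chst5) in each of C10 against REF, C10 against CF and C10 against I. Leaving out each rat in turn gave 0 to 1 called members in C10 against REF, the 1 being Agr2 without REF 3, and 0 in the other comparisons. The Spdef, Agr2 and Zg16 changes for C10 kept their negative sign and the Chst5 change its positive sign under all 28 alternatives, at -0.60 to -0.21, -1.04 to -0.32, -0.95 to -0.29 and 0.74 to 2.56, with adjusted p of 0.121 to 0.716, 0.0464 to 0.738, 0.0637 to 0.848 and 0.0591 to 0.421.

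Changes near 0 switched sign, none of them called. For C10 against REF, Tff3 was 0.06 without normalization between arrays and 0.09 by log-ratios. It was 0.03 with the array set as a term, 0.02 with the B cell and follicle mean and -0.33 to 0.42 leaving out rats. Leaving out rats gave -0.46 to 0.13 for Fcgbp and -0.65 to 0.22 for Clca1. For CF against REF, Tff3 was 0.05 without normalization between arrays and 0.10 by log-ratios (-0.25 to 0.41 leaving out rats), and with Hoxb13 as a term Fcgbp was -0.03, Zg16 0.07 and Clca1 -0.04. Zg16 ran from -0.50 to 0.09 leaving out rats. For I against REF, Zg16 was 0.13 by log-ratios and 0.08 with the array set as a term (-0.59 to 0.04 leaving out rats). In the same comparison Chst5 was -0.24 with Hoxb13 (-0.69 to 0.92 leaving out rats) and Tff3 ran from -0.31 to 0.17. The cause was not tested. No paired analysis was possible because the labels give no replicate numbers, other than by the 2 rats that share an array. The log-ratios within arrays, which use these pairs, called 0 members and gave 2.20 for Chst5, -1.04 for Agr2, -0.84 for Zg16 and -0.46 for Spdef in C10 against REF, with adjusted p of 0.352, 0.305, 0.250 and 0.462 (limma). Wide spread between the 4 rats of a diet, and the lack of a probe matched to Muc2, Muc1 or Muc13 by accession, limit what is shown here.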
